A study of Mus musculus with 6 samples.

Results

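The Hippo pathway and the genes driven by its effectors YAP and TAZ with the TEAD transcription factors were followed in cultured mouse podocytes lacking the adaptors NCK1 and NCK2. The members came from a list of 36 gene names, 22 parts of the pathway and 14 target genes, matched by symbol to the array annotation. A probe set naming only that gene was found for 35 of them, among 30702 genes in all. The kinase gene Stk3 had none and was not analysed here. Where a gene had several probe sets, the brightest over the 6 arrays was kept.

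In the Hippo pathway the kinases MST1 and MST2 (genes Stk4 and Stk3), helped by SAV1, activate LATS1 and LATS2, helped by MOB1A and MOB1B. The LATS kinases phosphorylate YAP and TAZ, which keeps them out of the nucleus. Unphosphorylated YAP and TAZ bind TEAD factors and switch on genes such as Ctgf and Cyr61. Cell shape, adhesion and tension of the actin cytoskeleton feed into the pathway, and podocytes depend on that cytoskeleton for their foot processes.

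The knockout group was a conditionally immortalized podocyte line with NCK1 and NCK2 deleted, and its counterpart was a wildtype podocyte line made in the same way. Cells of both lines were kept on type I collagen for 10 days to differentiate, and each line gave 3 arrays, described as independent. The labels do not say how the deletion was made, nor the strain, sex and number of the mice behind the lines. Each genotype was 1 line, so the genotype and the line cannot be told apart, and the p-values measure only the spread between arrays of a line, which may be technical. NCK1 and NCK2 are adaptor proteins that couple tyrosine-phosphorylated receptors such as nephrin to actin assembly.

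Values are log2 intensities, on which a difference of 1 is a 2-fold change, and levels of different probe sets are not compared. A gene was called when its limma p-value, adjusted by Benjamini-Hochberg over the 30702 genes, was under 0.05. Over genes, arrays of the same line correlated at 0.993 to 0.997 and arrays of different lines at 0.978 to 0.985 (Pearson), their medians ran from 7.08 to 7.22, and wildtype arrays 1 and 2 were the farthest apart within a line. Nck1 was at 8.13, 8.17 and 8.06 in knockout arrays, against 8.54, 8.74 and 8.62 in wildtype arrays (difference -0.51, limma adjusted p = 0.00391), and Nck2 differed by -0.24 (limma adjusted p = 0.0941) with both means in the range of the background probe sets. Where these probe sets lie relative to the deleted parts is not known. The lines also differed in transcripts of the sex chromosomes. Xist, the RNA of the inactive X chromosome, averaged 6.01 in knockout and 12.19 in wildtype arrays, and the Y-linked Uty averaged 9.90 in knockout and 5.21 in wildtype arrays. Of the other sex-linked genes listed and measured, the Y-linked Kdm5d was called higher in knockout and the X-linked Tsix was called lower. The Y-linked Eif2s3y did not follow Uty and was not called. Tsix and Eif2s3y had both means in the range of the background probe sets. The name podocyte is that of the sample labels and was not tested here. Of the 6 podocyte markers measured, Synpo, Podxl, Cd2ap and Actn4 had both group means above 7.78, and Nphs1 and Wt1 had both at or below it. That level is the highest mean of the array's 23 background probe sets. Means up to that level are called within the background range below. All 35 members had an overall mean above it.

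The promoters of several listed genes carry the short element that TEAD proteins bind, GGAATG, or CATTCC on the other strand. It was searched for in pathway parts and targets alike, and a match was not required of a target. The 250 bases before the RefSeq start (GRCm38.p6) were searched for both strings of 6 letters, which cannot share a base with each other. Of the 27 members with an entry, 14 (51.9%) held at least 1 match before any of their starts, against 3880 of 27025 genes (14.4%) in the whole table and 12.1% of genes measured above the background range. By list it was 10 of 19 pathway parts and 4 of 8 targets. The promoters of 6 targets and of Vgll3 follow, 5′ to 3′ towards the start, with matches in capitals. Ccn1 and Axl were higher in knockout and hold a match, Ankrd1 and Crim1 hold matches and were not called, and F3 and Nt5e, of which F3 was higher and Nt5e lower, hold none. Vgll3 is the pathway part with the largest rise.
Ccn1, chr3:145649986-145650235, minus strand: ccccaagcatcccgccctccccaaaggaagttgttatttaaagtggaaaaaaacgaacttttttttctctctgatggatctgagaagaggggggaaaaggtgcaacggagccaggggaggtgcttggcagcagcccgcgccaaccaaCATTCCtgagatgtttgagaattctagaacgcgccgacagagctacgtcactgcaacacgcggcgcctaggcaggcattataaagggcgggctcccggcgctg
Ankrd1, chr19:36119845-36120094, minus strand: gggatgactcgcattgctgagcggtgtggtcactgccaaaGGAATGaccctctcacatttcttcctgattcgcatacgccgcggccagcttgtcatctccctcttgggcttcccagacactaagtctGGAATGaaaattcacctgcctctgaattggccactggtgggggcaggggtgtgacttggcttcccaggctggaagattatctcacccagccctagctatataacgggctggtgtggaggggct
Axl, chr7:25788734-25788983, minus strand: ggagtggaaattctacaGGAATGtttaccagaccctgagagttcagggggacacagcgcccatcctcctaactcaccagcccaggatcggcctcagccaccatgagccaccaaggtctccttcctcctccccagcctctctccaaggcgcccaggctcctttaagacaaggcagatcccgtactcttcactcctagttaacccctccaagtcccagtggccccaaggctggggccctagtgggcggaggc
Crim1, chr17:78199998-78200247, plus strand: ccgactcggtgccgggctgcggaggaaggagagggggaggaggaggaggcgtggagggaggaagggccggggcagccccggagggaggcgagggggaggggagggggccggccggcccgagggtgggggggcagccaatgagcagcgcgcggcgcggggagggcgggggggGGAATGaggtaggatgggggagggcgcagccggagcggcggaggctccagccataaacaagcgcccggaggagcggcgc
F3, chr3:121723287-121723536, plus strand: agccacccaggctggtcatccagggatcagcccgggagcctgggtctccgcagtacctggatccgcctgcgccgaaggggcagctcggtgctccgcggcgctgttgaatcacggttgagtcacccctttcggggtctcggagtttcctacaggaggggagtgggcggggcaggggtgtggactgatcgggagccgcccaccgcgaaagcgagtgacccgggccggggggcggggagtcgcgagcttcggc
Nt5e, chr9:88327359-88327608, plus strand: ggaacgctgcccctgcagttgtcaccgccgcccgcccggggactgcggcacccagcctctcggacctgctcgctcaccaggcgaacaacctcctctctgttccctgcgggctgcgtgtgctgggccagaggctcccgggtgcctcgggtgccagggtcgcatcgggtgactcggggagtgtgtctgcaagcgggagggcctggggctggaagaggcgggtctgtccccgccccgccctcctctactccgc
Vgll3, chr16:65814939-65815188, plus strand: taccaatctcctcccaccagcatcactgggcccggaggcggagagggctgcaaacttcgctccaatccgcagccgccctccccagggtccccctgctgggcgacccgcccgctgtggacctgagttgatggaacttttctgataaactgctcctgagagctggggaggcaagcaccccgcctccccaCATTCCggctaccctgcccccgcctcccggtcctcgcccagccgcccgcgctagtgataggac

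Matches were found in called and uncalled genes alike. Among targets with an entry, 2 of 5 that were called and 2 of 3 that were not held a match, and among pathway parts 2 of 6 called and 8 of 13 not called. The called targets Ctgf, Asap1, Dlc1 and Nuak2 had no entry and are left out of these counts. So are Fjx1, Arhgef17, Tead1 and Tead4, which were not called. Both called pathway parts with a match, Sav1 and Vgll3, moved in opposite directions. The map of matches shows 3 matches before the start of Wwc2 and 2 before those of Ajuba and Ankrd1 and before 1 of the 3 starts of Tead3. A match is a string of letters, not a bound site, and a window without one says nothing of TEAD binding elsewhere.

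**Figure D1:**
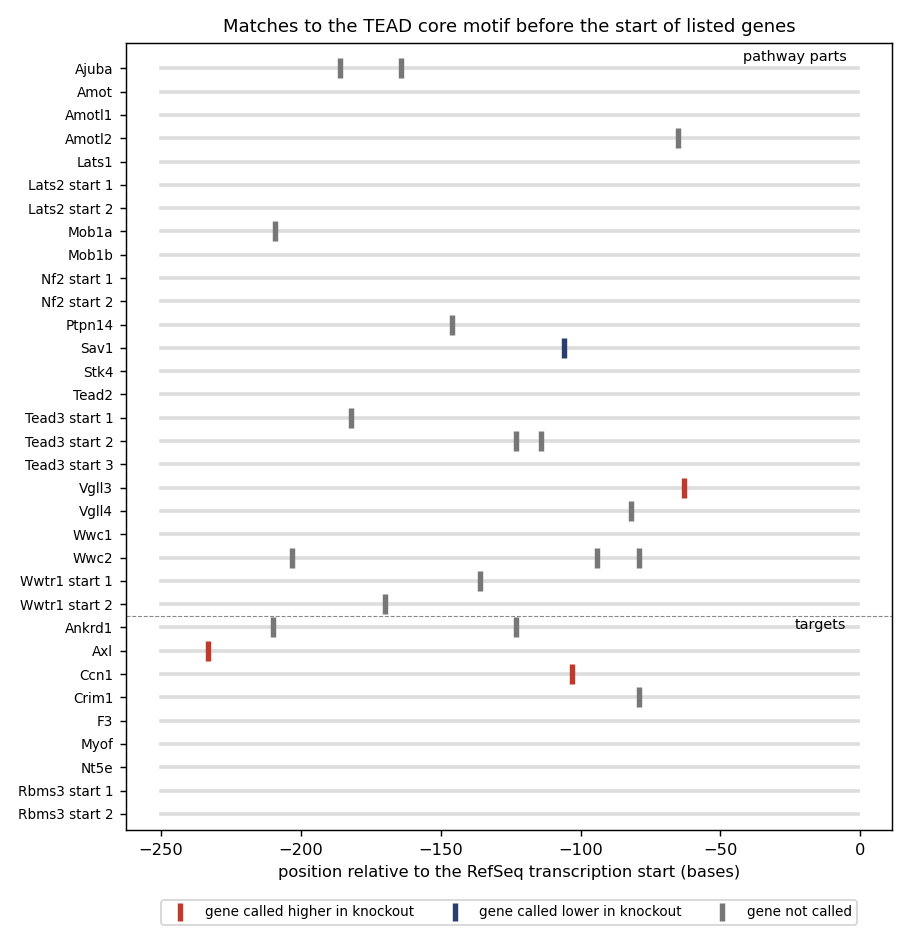
Positions of GGAATG or CATTCC in the 250 bases before each RefSeq start of the 27 listed genes with an entry, in bases from the start. Grey lines are the windows, 1 per start, and tick colour gives the gene's call. Matches fall in genes called higher, called lower and not called.

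The called targets of YAP and TEAD were mostly higher in knockout, and the called pathway parts went both ways. Of 14 measured targets 7 were called higher, 2 lower and 5 were not called, and of 21 pathway parts 3 were called higher, 3 lower and 15 were not called. Among genes above the background range alone 5 pathway parts were called higher, and with quantile normalization repeated 5 were called lower. Over all 30702 genes 5.05% were called higher and 6.9% lower, 12.0% in either direction. Because all members lay above the background range, the 11391 genes above it are the closer comparison, with 10.1% called higher, 13.5% lower and 23.5% either way. The median log2 difference was 0.28 over the targets and -0.006 over the pathway parts, against 0.012 over all genes and -0.012 over genes above the background range. The groups did not overlap for 12 of 14 targets and 12 of 21 pathway parts, against 27.4% of all genes and 50.0% of genes above the background range, so the pathway parts were near the share of the second. Of 4 fibroblast markers Dcn and Col1a1, and of 5 mesangial and smooth muscle markers Acta2 and Pdgfrb, were also called higher. The other markers of both lists had means within the background range in each line. Of 8 parietal and tubular markers 4 were called lower and 4 were not called. In bulk RNA more or fewer cells of a type and more or less RNA per cell cannot be told apart. The arrays measured RNA, so the phosphorylation and location of YAP and TAZ were not measured.

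**Figure D2:**
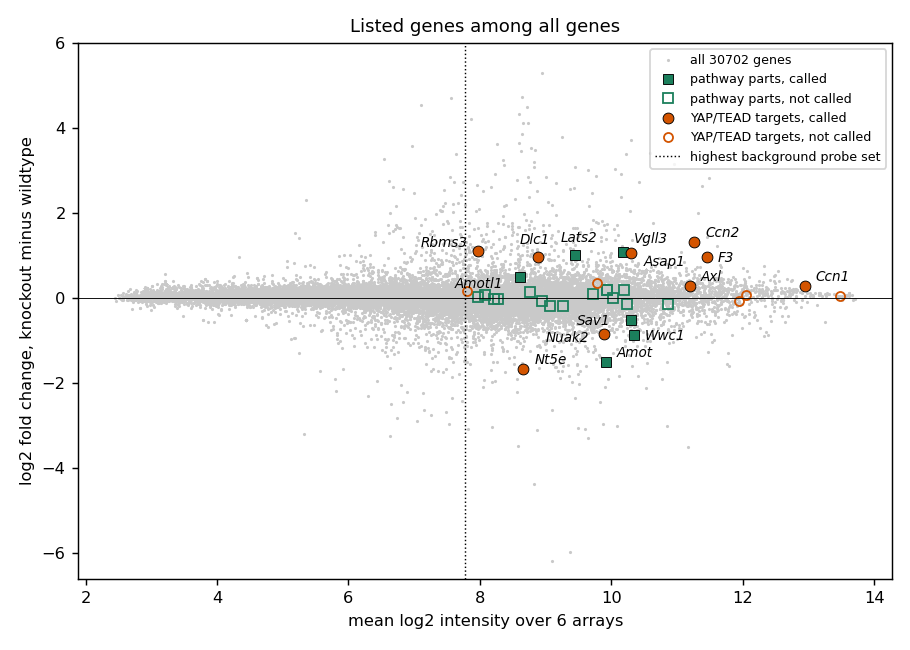
Log2 difference between knockout and wildtype (vertical axis) against mean log2 intensity over 6 arrays (horizontal axis) for all 30702 genes, with the listed genes marked by list and by call. The called targets lie mostly above 0, with Nt5e and Nuak2 below, and the called pathway parts lie 3 above and 3 below.

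The factors that bind DNA for the pathway, and the co-activator TAZ, differed little between the lines. Tead1, Tead2, Tead3 and Tead4 encode the DNA-binding partners of YAP and TAZ, and Wwtr1 encodes TAZ. None of these 5 was called (limma adjusted p from 0.117 to 0.986), and their 95% intervals all lay between -0.16 and 0.32. Tead1 was at 10.00, 10.02 and 10.07 in knockout arrays, against 9.78, 9.95 and 9.83 in wildtype arrays. The 3 knockout values lay above the wildtype ones, with a difference of 0.18 (SE 0.06, limma adjusted p = 0.117). Tead1 passed the threshold without wildtype replicate 2 (limma adjusted p = 0.0379) and with quantile normalization repeated (limma adjusted p = 0.0413). Tead2 was at 8.12 in all knockout arrays and from 8.03 to 8.06 in wildtype arrays, a difference of 0.08 that was not called. Wwtr1 was at 10.13, 10.00 and 9.93 in knockout arrays, against 10.04, 10.05 and 9.99 in wildtype arrays, and the groups overlapped. Yap1, which was outside the member list and encodes YAP, was at 9.14, 9.23 and 9.04 in knockout arrays, against 8.86, 8.997 and 8.87 in wildtype arrays. The groups did not overlap, and the difference of 0.23 (95% interval 0.07 to 0.39) missed the threshold (limma adjusted p = 0.087), though it passed among genes above the background range (adjusted p = 0.0383) and with quantile normalization repeated (adjusted p = 0.0329).

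In the kinase cassette 1 gene rose and 1 fell. Lats2, which encodes a kinase that phosphorylates YAP and TAZ and is itself a target of YAP, was at 9.98, 9.94 and 9.95 in knockout arrays, against 8.88, 9.06 and 8.92 in wildtype arrays. The groups lay far apart, and Lats2 rose 2.01-fold (95% interval 1.82 to 2.22, limma adjusted p = 0.000186). Its relative Lats1 was at 9.79, 9.79 and 9.74 in knockout arrays, against 9.56, 9.77 and 9.71 in wildtype arrays, which overlapped, and was not called (difference 0.09, limma adjusted p = 0.514). The log2 ratio of Lats2 to Lats1 within an array averaged 0.19 ± 0.03 in knockout and -0.73 ± 0.05 in wildtype (SD, n = 3 each), with no overlap. Its exact two-sided permutation p was 0.1, the smallest that 3 against 3 arrays can give and the value of any ratio without overlap. This pair and those below were chosen with the values known, so their p-values cannot serve as tests of unequal change. Sav1, the scaffold that brings MST kinases to LATS, was at 10.08, 10.10 and 9.98 in knockout arrays, against 10.52, 10.62 and 10.54 in wildtype arrays. All knockout values were lower, and Sav1 fell to 0.70 of the wildtype level (95% interval 0.64 to 0.77, limma adjusted p = 0.00194). Mob1a, whose product binds and activates LATS, was at 9.21, 9.27 and 9.02 in knockout arrays, against 9.31, 9.39 and 9.39 in wildtype arrays. It was lower in every knockout array and was not called (difference -0.19, limma adjusted p = 0.177), and neither were Mob1b and Stk4, with differences of -0.07 and 0.15.

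Of the upstream scaffolds, Wwc1 fell and its relative Wwc2 was not called. Wwc1 encodes KIBRA, which acts with merlin (Nf2) to turn on the LATS kinases and is known in podocytes as a synaptopodin partner. It was at 9.91, 9.91 and 9.92 in knockout arrays, against 10.78, 10.86 and 10.71 in wildtype arrays. The knockout values were nearly identical and all lower, and Wwc1 fell to 0.55 of the wildtype level (95% interval 0.50 to 0.60, limma adjusted p = 0.000191). Wwc2 was at 10.31, 10.32 and 10.23 in knockout arrays, against 10.05, 10.16 and 10.11 in wildtype arrays, a difference of 0.18 that was not called (limma adjusted p = 0.0793). Among genes above the background range alone Wwc2 passed the threshold (limma adjusted p = 0.0352). The groups did not overlap for Wwc2 either, but in the other direction, and the log2 ratio of Wwc1 to Wwc2 averaged -0.38 ± 0.06 in knockout and 0.67 ± 0.07 in wildtype (SD, n = 3 each, exact permutation p = 0.1). Nf2 was at 8.92, 8.95 and 9.05 in knockout arrays, against 9.08, 9.24 and 9.15 in wildtype arrays, lower in every knockout array, and the difference of -0.18 was not called (limma adjusted p = 0.122). With quantile normalization repeated Nf2 just passed (limma adjusted p = 0.0499).

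The angiomotins, junction and actin-binding proteins that hold YAP in the cytoplasm, moved in different directions. Amot was at 9.12, 9.14 and 9.21 in knockout arrays, against 10.69, 10.71 and 10.61 in wildtype arrays. It fell to 0.35 of the wildtype level (95% interval 0.32 to 0.38, limma adjusted p = 2.09e-05), the largest change in size among the pathway parts. Amot was the only member with another probe set, which was at 8.94, 8.94 and 9.01 in knockout arrays, against 10.28, 10.44 and 10.33 in wildtype arrays, a difference of -1.39 against -1.51 for the brighter one. Amot is X-linked, and the lines differ in Xist. Of 449 X-linked genes above the background range 102 (22.7%) were called lower and 39 (8.7%) higher, with a median of -0.07, against -0.012 over all genes above the range. The part of Xist and the Y-linked genes in the Amot difference was not tested.

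Amotl1 was at 8.83, 8.91 and 8.83 in knockout arrays, against 8.32, 8.44 and 8.32 in wildtype arrays. It went the other way to Amot and rose 1.41-fold (95% interval 1.29 to 1.54, limma adjusted p = 0.00224). Amotl2, which YAP also drives, was at 10.24, 10.13 and 10.13 in knockout arrays, against 10.36, 10.34 and 10.24 in wildtype arrays, and was not called (difference -0.15, limma adjusted p = 0.182). The log2 ratio of Amot to Amotl1 averaged 0.30 ± 0.08 in knockout and 2.31 ± 0.05 in wildtype (SD, n = 3 each, exact permutation p = 0.1). Ajuba, a LIM protein that restrains LATS kinases, was at 10.07, 9.96 and 10.05 in knockout arrays, against 9.85, 9.88 and 9.79 in wildtype arrays, higher in every knockout array, and its difference of 0.19 was not called (limma adjusted p = 0.0773). Among genes above the background range alone Ajuba passed (limma adjusted p = 0.0342). Ptpn14, a phosphatase that binds YAP, was at 10.74, 10.73 and 10.90 in knockout arrays, against 10.90, 11.02 and 10.91 in wildtype arrays. The Ptpn14 groups overlapped, and its difference of -0.15 was not called (limma adjusted p = 0.252). With quantile normalization repeated Ptpn14 passed (limma adjusted p = 0.0231).

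Vgll3, a vestigial-like protein that binds TEAD in place of YAP, was the pathway part with the largest rise. It was at 10.73, 10.74 and 10.70 in knockout arrays, against 9.51, 9.75 and 9.65 in wildtype arrays. The knockout values were all higher, and Vgll3 rose 2.13-fold (95% interval 1.90 to 2.39, limma adjusted p = 0.000237). Vgll4, which competes with YAP for TEAD, was at 8.20, 8.20 and 8.19 in knockout arrays, against 8.20, 8.28 and 8.20 in wildtype arrays, with no difference beyond the spread (limma adjusted p = 0.839). In all, 7 pairs of related genes were compared by their ratio within an array. In 7 of 7 the groups did not overlap, each with an exact permutation p of 0.1. That is the smallest possible value, and Benjamini-Hochberg adjustment over the 7 could not change it. Of single genes above the background range 50.0% did not overlap, and the share over other pairs was not computed. The pairs were chosen with the values known, so this count cannot serve as a test of unequal change. Probes of close relatives can also cross-hybridize.

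**Figure D3:**
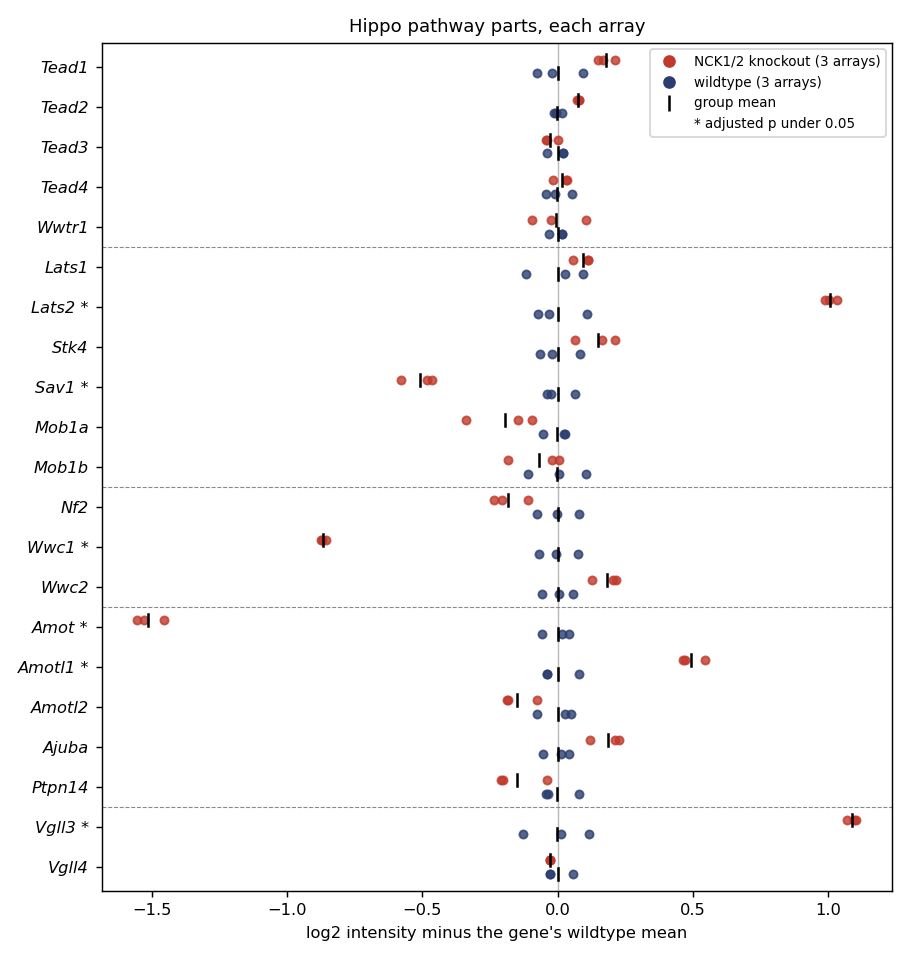
Log2 intensity of each pathway part on each array, as the distance from that gene's wildtype mean, with 3 knockout points above 3 wildtype points in each row and bars for group means. Rows run from TEAD factors to vestigial-like partners, and the 6 called genes, Lats2, Sav1, Wwc1, Amot, Amotl1 and Vgll3, stand clear of the wildtype points.

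Among secreted targets, both CCN genes rose, by unequal amounts. Ctgf (now Ccn2) encodes a matricellular protein of fibrosis and wound repair and is a standard readout of YAP activity. It was at 12.03, 11.90 and 11.81 in knockout arrays, against 10.71, 10.57 and 10.55 in wildtype arrays. The groups were well apart, and Ctgf rose 2.47-fold (95% interval 2.18 to 2.80, limma adjusted p = 0.000173). Cyr61 (now Ccn1), a related matricellular protein that binds integrins, was at 13.10, 13.01 and 13.13 in knockout arrays, against 12.85, 12.79 and 12.77 in wildtype arrays. Cyr61 rose 1.21-fold (95% interval 1.11 to 1.32, limma adjusted p = 0.0198), a call lost without knockout replicate 1 or 3 or wildtype replicate 2 or 3 (adjusted p from 0.0522 to 0.0968). The log2 ratio of Ctgf to Cyr61 averaged -1.16 ± 0.14 in knockout and -2.20 ± 0.04 in wildtype (SD, n = 3 each, exact permutation p = 0.1). Cyr61 lies near the brightest values of the arrays, whose maxima ran from 13.90 to 14.02, and what that does to its difference was not tested. Fjx1, the counterpart of the Drosophila gene four-jointed, was at 7.91, 7.88 and 7.84 in knockout arrays, against 7.84, 7.68 and 7.63 in wildtype arrays, with a wildtype mean within the background range, and was not called (limma adjusted p = 0.204). Without wildtype replicate 1 Fjx1 passed (limma adjusted p = 0.0397).

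The membrane targets included the strongest fall of the list. Nt5e encodes CD73, the surface enzyme that makes adenosine from AMP. It was at 7.79, 7.92 and 7.76 in knockout arrays, against 9.39, 9.74 and 9.38 in wildtype arrays. The knockout values lay around the upper end of the background range, and Nt5e fell to 0.31 of the wildtype level (95% interval 0.26 to 0.37, limma adjusted p = 0.000252). F3 encodes tissue factor, the starter of the clotting cascade, and was at 11.96, 11.91 and 11.95 in knockout arrays, against 10.95, 11.01 and 10.95 in wildtype arrays. F3 rose 1.96-fold (95% interval 1.82 to 2.11, limma adjusted p = 6.95e-05), with the lowest adjusted p of the targets. The receptor tyrosine kinase gene Axl was at 11.36, 11.29 and 11.35 in knockout arrays, against 11.09, 11.08 and 10.998 in wildtype arrays. Axl rose 1.22-fold (95% interval 1.12 to 1.32, limma adjusted p = 0.0129), a call lost without knockout replicate 1 (adjusted p = 0.0649) or wildtype replicate 3 (adjusted p = 0.0645). Crim1, a transmembrane protein that binds growth factors, was at 12.16, 12.10 and 11.99 in knockout arrays, against 12.05, 12.04 and 11.97 in wildtype arrays, with overlapping groups. Myof, a membrane repair protein, was at 11.93, 11.90 and 11.90 in knockout arrays, against 11.96, 11.99 and 11.97 in wildtype arrays, lower in every knockout array by little. Neither was called, with differences of 0.07 (95% interval -0.08 to 0.21) and -0.06 (95% interval -0.16 to 0.04).

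Of 6 intracellular targets, 3 rose and 1 fell. Rbms3, an RNA-binding protein, was at 8.45, 8.55 and 8.60 in knockout arrays, against 7.47, 7.44 and 7.36 in wildtype arrays, whose mean lay within the background range. Set against the upper end of that range, Rbms3 was at least 1.69-fold higher in knockout (measured log2 difference 1.11, limma adjusted p = 0.000122). Asap1, which encodes a GTPase-activating protein for Arf at focal adhesions, was at 10.78, 10.82 and 10.89 in knockout arrays, against 9.71, 9.86 and 9.77 in wildtype arrays. It rose 2.07-fold (95% interval 1.88 to 2.29, limma adjusted p = 0.000148). Dlc1, a GTPase-activating protein, was at 9.36, 9.41 and 9.31 in knockout arrays, against 8.39, 8.45 and 8.37 in wildtype arrays, and rose 1.95-fold (95% interval 1.79 to 2.12, limma adjusted p = 0.000119). In each of these 3 genes the knockout values were all higher than the wildtype values.

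Nuak2 encodes a kinase of the AMPK family that acts on actomyosin. It was at 9.40, 9.33 and 9.64 in knockout arrays, against 10.31, 10.35 and 10.28 in wildtype arrays. The knockout arrays were all lower and more spread, and Nuak2 fell to 0.55 of the wildtype level (95% interval 0.48 to 0.64, limma adjusted p = 0.00146). Ankrd1, a muscle ankyrin repeat protein and a standard YAP readout, was at 13.49, 13.56 and 13.47 in knockout arrays, against 13.44, 13.45 and 13.47 in wildtype arrays. Its groups overlapped, and the difference of 0.05 (95% interval -0.06 to 0.16) was not called, at a level close to the array maxima. Arhgef17 was at 9.88, 9.87 and 10.15 in knockout arrays, against 9.53, 9.71 and 9.59 in wildtype arrays. All knockout values were higher, and the difference of 0.36 (95% interval 0.13 to 0.58) just missed the threshold (limma adjusted p = 0.0573, and from 0.013 to 0.191 over the alternatives).

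**Figure D4:**
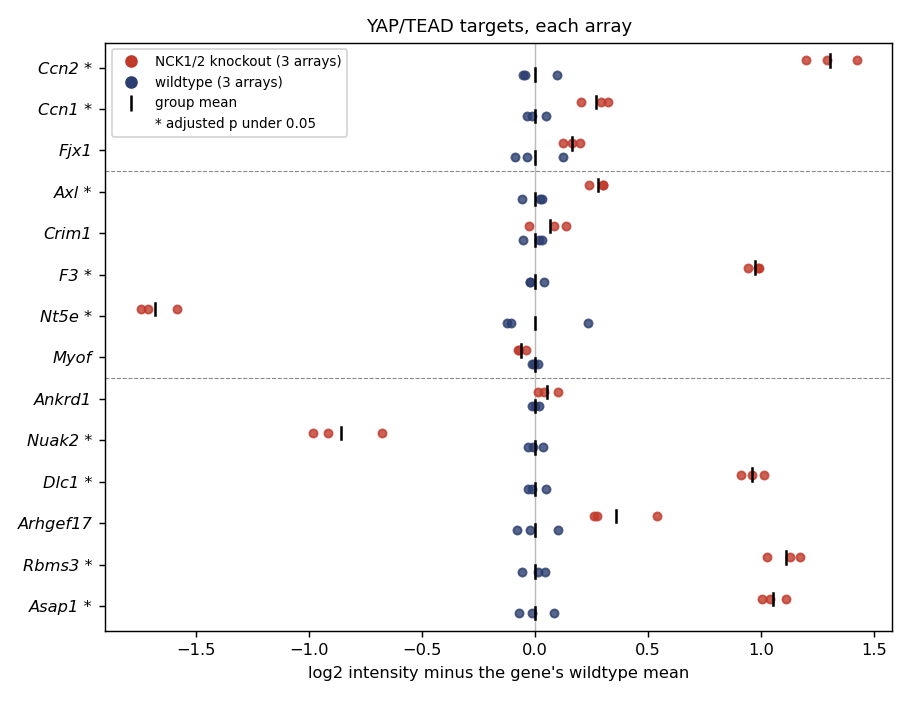
Log2 intensity of each YAP/TEAD target on each array, as the distance from that gene's wildtype mean, with 3 knockout points above 3 wildtype points in each row and bars for group means. Of the 9 called genes 7 lie to the right of the wildtype points, and Nt5e and Nuak2 to the left.

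Among genes of the pathway outside the member list, 5 of 44 were called, against 12.0% of all genes and 23.5% of genes above the background range. Of these 44, 4 were called higher, 1 lower and 39 were not called, and 33 lay above the background range. Frmd6, a relative of merlin upstream of the kinases, was at 10.32, 10.29 and 10.45 in knockout arrays, against 9.44, 9.55 and 9.44 in wildtype arrays, and rose 1.83-fold (limma adjusted p = 0.00043). The giant cadherin genes went apart, with Fat1 higher by 0.53 (limma adjusted p = 0.000947) and Fat4 lower by a difference of -0.63 (limma adjusted p = 0.00356). Rassf1 and Rassf3, which encode scaffolds of the MST kinases, rose by 0.39 and 0.35, and Rassf3 was named with its value in view. This list had 5 calls here and 9 both among genes above the background range and with quantile normalization repeated.

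Of 22 other targets measured, 8 were called higher, 3 lower and 11 were not called. Over all genes 5.05% were called higher and 6.9% lower, and among genes above the background range 10.1% and 13.5%. The list was chosen with earlier results of these data known. Of the 22, 16 lay above the background range. Slit2, a guidance ligand for Robo receptors, was at 8.98, 9.01 and 9.10 in knockout arrays, against 6.89, 7.08 and 6.83 in wildtype arrays, with a wildtype mean within the background range. Set against the upper end of that range, Slit2 was at least 2.39-fold higher in knockout (measured log2 difference 2.10, limma adjusted p = 2.88e-05). Dock5, an exchange factor for Rac, was at 9.24, 9.35 and 9.38 in knockout arrays, against 7.71, 7.95 and 7.79 in wildtype arrays, a 2.84-fold rise (limma adjusted p = 0.00011). In both the knockout values stood clear of the wildtype values. Tagln, a smooth muscle actin-binding protein that serum response factor also drives, was at 10.32, 10.32 and 10.92 in knockout arrays, against 7.74, 7.83 and 7.87 in wildtype arrays, a 6.51-fold rise (limma adjusted p = 0.000215). The wildtype means of Dock5 (7.815) and Tagln (7.813) lay just above the background range, which ends at 7.78, and this limits both folds. Msln, the mesothelial antigen mesothelin, was at 8.69, 8.63 and 8.52 in knockout arrays, against 9.86, 9.91 and 9.81 in wildtype arrays, and fell to 0.42 of the wildtype level (limma adjusted p = 8.96e-05).

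**Figure D5:**
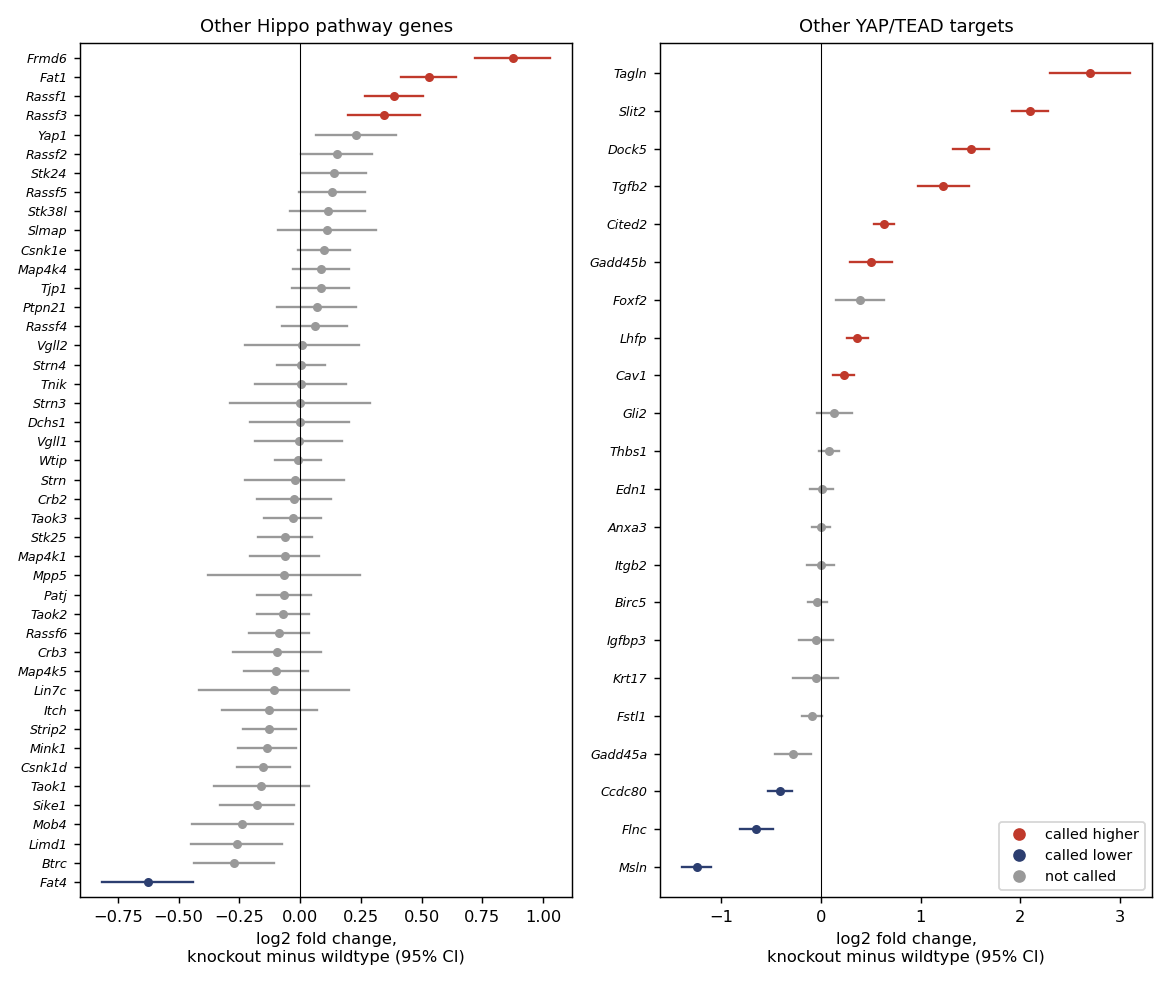
Log2 difference between knockout and wildtype with its 95% interval for 44 other Hippo pathway genes (left) and 22 other YAP/TEAD targets (right), ordered by size and coloured by call. Frmd6, Fat1, Rassf1 and Rassf3 lie above 0 and Fat4 below on the left, and Tagln, Slit2 and Dock5 have the largest rises on the right.

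Markers of other cell types moved beside the targets. Of 4 fibroblast markers measured Dcn and Col1a1 were called higher while Col1a2 and Lum lay in the background range on average in each line. The summed intensity of the 4 ran from 4748 to 5198 in knockout and from 621 to 699 in wildtype arrays. Of 5 mesangial and smooth muscle markers Acta2 and Pdgfrb were called higher, while Des, Itga8 and Myh11 had both means within the background range, with sums from 8559 to 9430 in knockout and from 1475 to 1713 in wildtype arrays. Of 8 parietal and tubular markers Cldn1, Pax8, Lrp2 and Cdh16 were called lower and none higher, and Epcam and Slc12a1 lay within the background range. Those called lower, and Pax2 and Aqp2, had means above that range in both lines. Lrp2 averaged 11.39 in knockout and 11.76 in wildtype, and Pax8 10.69 and 11.42. The sums of the 8 ran from 7936 to 8443 in knockout and from 12188 to 12939 in wildtype arrays. Endothelial markers lay within the background range, 5 of 5, with sums from 319 to 321 in knockout and from 295 to 342 in wildtype arrays. Of 5 immune markers Cd68 was called higher (difference 0.57) and the other 4, Ptprc among them, lay within the background range, with sums from 599 to 732 in knockout and from 501 to 564 in wildtype arrays. Of 6 podocyte markers Actn4 was called higher (difference 0.61) and 5 were not called, with sums from 7309 to 7606 in knockout and from 5770 to 6108 in wildtype arrays. All these sums are of linear intensities, so bright probe sets, such as those of Actn4 and Acta2, weigh most. A sum does not show that a whole list changed. Of 4 markers of dividing cells Top2a was called lower (difference -0.43), with sums from 2262 to 2583 in knockout and from 2528 to 2909 in wildtype arrays. The part of these differences in the Hippo and YAP/TEAD values was not tested.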

How the data were processed

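The authors deposited log2 intensities of probe sets, which the submitters' processing notes tie to RMA and to affy 1.44.0. Which probe definition file and filters were used is not stated in those notes. Of 72688 probe sets, 186 controls were left out. The platform annotation gave a symbol to 32750, of which 31258 named 1 gene after repeats and synonyms were joined through a RefSeq table of GRCm38.p6 and 1492 named several and were not used. The brightest probe set of each gene was kept, leaving 30702 genes. Promoters are RefSeq's, of GRCm38.p6.

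The 3 knockout arrays were set against the 3 wildtype arrays in limma 3.58.1 under R 4.3.3 (lmFit and eBayes, two-sided, no covariate, no filter), with Benjamini-Hochberg adjustment over all 30702 genes. Errors are SDs over 3 arrays or limma standard errors, and precision is limited by how few arrays there are. The fit was tested on simulated data. Figures were drawn with matplotlib 3.10.9. No p-value was taken over a list. The members and lists were chosen with earlier results of these data known. Named were all members, the targeted genes, the listed sex-linked genes that were measured, and Yap1. The 4 called genes with the largest change in each of the 2 lists of other genes were also named.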

Additional observations from a re-analysis of the deposited data

How the results depend on the processing

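Over 15 alternatives the 35 members gave 525 values, of which 500 kept their direction and their side of the threshold. Calls were lost for Cyr61 and Axl only, 8 times in all, and the 6 called pathway parts and the other 7 called targets kept theirs in every alternative run. Members not called gained a call 10 times, among them Arhgef17 in 3 alternatives and Tead1 in 2. Signs turned 7 times, each in a gene that was not called: Wwtr1 ran from -0.061 to 0.04 over the arrays left out, with 0.005 without knockout replicate 2, 0.04 without knockout replicate 3 and 0.003 without wildtype replicate 1 or 2, Tead4 ran from -0.004, without wildtype replicate 2, to 0.044, and with quantile normalization repeated Tead3 had 0.006 and Vgll4 had 0.004.

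Leaving out 1 array at a time gave 3 to 4 pathway parts higher, 3 lower, 5 to 8 targets higher and 2 lower, 4 to 6 other pathway genes and 9 to 11 other targets called, and medians from -0.022 to 0.034 (the highest without knockout replicate 3) for the pathway parts and from 0.253 to 0.304 for the targets. Quantile normalization repeated gave 5 pathway parts lower and 9 other pathway genes. Genes above the background range alone gave 5 pathway parts higher and 9 other pathway genes, with fewer genes tested. Counting Lats2, Amotl2, Ptpn14 and Ajuba as targets, an alternative chosen after the data were seen, gave 2 pathway parts and 8 targets higher. The cause of the other shifts was not tested. Over all genes, calls numbered 3669, against 2232 without knockout replicate 1, 2311 without knockout replicate 2 and 2079 without wildtype replicate 3. The replicate block gave 7 targets higher and 2 lower, 3 pathway parts each way, and 3765 calls over all genes. Same-numbered arrays correlated in their deviations from the group means by 0.348, 0.275 and 0.04, and other pairings gave from -0.344 to 0.053. Knockout arrays 1 and 2 thus correlated best with their same-numbered arrays, and knockout array 3 slightly better with wildtype array 2 (0.053). The arrays are described as independent, so the numbers were not taken to pair them in the main fit. Whether same-numbered arrays shared a batch was not tested. No call here separates genotype from line. Levels in or near the background range limit Nt5e, Rbms3, Fjx1, Slit2, Dock5 and Tagln, and levels near the array maxima limit Ankrd1 and Cyr61.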
